A study of Mus musculus with 8 samples.

Results

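The core cardiac transcription factor genes are *Gata4*, *Gata6*, *Nkx2-5*, *Tbx5*, *Tbx20*, *Hand1*, *Hand2* and *Isl1*, 8 genes whose products specify heart muscle cells and keep their gene programs on. An H3K27Ac peak was assigned to one of them when its centre lay nearest to a curated RefSeq transcription start of that gene in the mouse genome build mm10. By this rule 14 of 45980 placed peaks, out of 45987 peaks in all, belonged to 5 of the 8 genes. *Gata4* had 7, *Tbx20* had 3, *Tbx5* had 2, and *Nkx2-5* and *Hand2* had 1 each. *Gata6*, *Hand1* and *Isl1* had 0, although a wide peak did cover the start of *Gata6*, whose nearest curated start was that of its divergent noncoding neighbour *Gata6os*.

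H3K27Ac, acetylation of lysine 27 of histone H3, was profiled by ChIP-seq in P7 mouse ventricles. Both groups had floxed *Arid1a* alleles. Controls (*Arid1a f/f*) lacked Cre, while the *Arid1a cKO* group (*aMHC-Cre;Arid1a f/f*) also carried a Cre transgene driven by the alpha myosin heavy chain promoter, which acts in cardiomyocytes and leaves *Arid1a* intact in the other cells of the ventricle. The study asked how loss of ARID1A, a DNA-binding subunit of the SWI/SNF chromatin remodelling complex, alters the active chromatin of the neonatal heart. Each group had 2 H3K27Ac libraries and 2 input libraries, from littermates. The deposited table holds the log2 of the mean normalized reads of each group and 0 columns of single samples, so the spread between the 2 hearts of a group and the depth of each library are unknown, and no difference given here was set against replicate error or tested; the authors' own test per peak was not used. A difference is the log2 mean of *Arid1a cKO* minus that of control, and at least 2-fold means a difference of 1 or more in size.

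H3K27Ac marks active promoters and enhancers, and genes that define a cell's identity often lie within broad acetylated domains made of several neighbouring enhancers. GATA factors, the homeodomain protein NKX2-5, T-box factors and the HAND basic helix-loop-helix proteins bind such enhancers together in cardiomyocytes and also activate one another's genes. ISL1 marks progenitors of the second heart field, and HAND1 acts mainly in the early left ventricle.

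The sequences printed here are the member promoters that lie inside an H3K27Ac domain over the start, and the centres of 4 peaks that differed by at least 2-fold and are described with the loci. Promoters are the 250 bases upstream of the start, on the gene's strand, from the RefSeq promoter table of GRCm38.p6, which is mm10; the table held *Hand2*, *Tbx20*, *Nkx2-5* and *Isl1*, and *Gata4*, *Gata6*, *Tbx5* and *Hand1* were not matched. Peak centres are 300 bases of the plus strand of the same build. Capitals mark matches on either strand to short words that these factors prefer. The word searched for GATA factors was AGATAA and that for NKX2-5 was TNAAGTG. The word for T-box factors was AGGTGT, the E-box word of HAND factors was CATCTG and the word for TEAD factors was CATTCC. The MEF2 core was searched as well, and no word is contained in another. The *Hand2* promoter lies at chr8:57320733-57320982 on the plus strand, that of *Nkx2-5* at chr17:26841566-26841815 and that of *Tbx20* at chr9:24774304-24774553, both on the minus strand. The *Tbx5* peak centre is at chr5:119877692-119877991, the *Gata4* peak centre at chr14:63277335-63277634, the *Hand2* upstream peak centre at chr8:57204999-57205298 and the *Tbx20* upstream peak centre at chr9:24956344-24956643.
Hand2 promoter: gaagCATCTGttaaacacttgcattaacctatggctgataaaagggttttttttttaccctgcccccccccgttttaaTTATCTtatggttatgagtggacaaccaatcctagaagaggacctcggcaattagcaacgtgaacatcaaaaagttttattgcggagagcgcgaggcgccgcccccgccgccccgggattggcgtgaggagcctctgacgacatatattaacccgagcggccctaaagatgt
Nkx2-5 promoter: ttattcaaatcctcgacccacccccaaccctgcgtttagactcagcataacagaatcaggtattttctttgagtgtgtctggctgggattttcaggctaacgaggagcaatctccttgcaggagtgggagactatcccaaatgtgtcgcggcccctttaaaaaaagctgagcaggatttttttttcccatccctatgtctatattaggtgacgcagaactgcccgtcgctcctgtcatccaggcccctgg
Tbx20 promoter: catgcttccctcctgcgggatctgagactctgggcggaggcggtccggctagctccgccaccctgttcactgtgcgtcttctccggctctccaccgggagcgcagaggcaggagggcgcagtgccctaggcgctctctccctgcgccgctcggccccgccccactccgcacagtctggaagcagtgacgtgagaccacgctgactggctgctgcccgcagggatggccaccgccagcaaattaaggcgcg
Tbx5 intronic peak centre: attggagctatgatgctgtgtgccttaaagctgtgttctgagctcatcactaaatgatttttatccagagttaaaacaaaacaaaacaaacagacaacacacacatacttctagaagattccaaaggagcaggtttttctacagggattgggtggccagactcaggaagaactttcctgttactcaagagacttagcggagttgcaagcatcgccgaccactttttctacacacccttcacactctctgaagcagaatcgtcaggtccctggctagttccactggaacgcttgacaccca
Gata4 upstream peak centre: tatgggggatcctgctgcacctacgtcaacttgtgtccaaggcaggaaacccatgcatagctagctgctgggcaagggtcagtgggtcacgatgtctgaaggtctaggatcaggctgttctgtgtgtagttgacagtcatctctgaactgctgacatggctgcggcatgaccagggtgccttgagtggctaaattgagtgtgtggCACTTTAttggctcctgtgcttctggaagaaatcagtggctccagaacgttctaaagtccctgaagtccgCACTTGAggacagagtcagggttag
Hand2 upstream peak centre: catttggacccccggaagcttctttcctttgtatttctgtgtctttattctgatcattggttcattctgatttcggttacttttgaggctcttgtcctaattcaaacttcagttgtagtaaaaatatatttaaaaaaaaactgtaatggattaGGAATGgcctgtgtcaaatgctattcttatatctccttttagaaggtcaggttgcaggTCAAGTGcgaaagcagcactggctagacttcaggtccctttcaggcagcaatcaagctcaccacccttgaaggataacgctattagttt
Tbx20 upstream peak centre: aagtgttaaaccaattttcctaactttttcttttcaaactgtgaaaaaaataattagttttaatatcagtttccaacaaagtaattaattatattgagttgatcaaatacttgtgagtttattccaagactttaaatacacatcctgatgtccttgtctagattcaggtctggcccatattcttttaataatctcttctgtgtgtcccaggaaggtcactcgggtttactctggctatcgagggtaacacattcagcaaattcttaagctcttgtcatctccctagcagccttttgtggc

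Of the 3 promoters, that of *Hand2* held a HAND E-box word at bases 5 to 10 of the run and a GATA word on the opposite strand at bases 79 to 84. Among all 32851 promoters of the same length, 14.4% held the HAND E-box word and 9.99% the GATA word. The NKX2-5, T-box, TEAD and MEF2 words, present in 10.1%, 11.8%, 12.6% and 0.508% of all promoters, had no match in the 3. The promoter of *Tbx20* was GC-rich at 68.8%, against 49.2% in each of *Hand2* and *Nkx2-5*. The *Gata4* upstream peak centre held a pair of NKX2-5 words, the *Hand2* upstream centre held 1 NKX2-5 and 1 TEAD word, and the *Tbx5* and *Tbx20* centres held no match to these letters.

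Across all 14 member peaks, the central 300 bases held an NKX2-5 word in 4 peaks (28.6%) against 13.9% of all peaks, and a GATA word in 3 (21.4%) against 13.4%. A T-box word was found in 3 (21.4%) against 12.8%, a HAND E-box word in 1 (7.14%) against 20.3%, a TEAD word in 1 (7.14%) against 16.7%, and the MEF2 core in 0 against 1.63%. With so few peaks a single match moves each share by 7.14 percentage points. Over whole start domains, GATA words were densest in *Tbx20* (0.827 per kb) and *Tbx5* (0.783 per kb) and sparsest in *Gata4* (0.424 per kb), beside 0.475 per kb over all start domains of 10 kb or more. NKX2-5 words had another order, from 0.721 in *Gata4* to 0.336 in *Tbx5* and 0.31 in *Tbx20*, beside 0.511. T-box words ran from 0.763 in *Gata4* to 0.258 in *Tbx20*, beside 0.611. HAND E-box words ran from 0.671 in *Tbx5* to 0.528 in *Hand2*, beside 0.838, and TEAD words from 0.704 in *Hand2* to 0.224 in *Tbx5*, beside 0.607. A match is a run of letters and not a bound site.

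H3K27Ac over the starts of the core factors lay in domains of 18.5 to 35.0 kb at 5 of the genes and of 8.94 kb at *Tbx5*, and the *Arid1a cKO* mean was lower than the control mean in all 6 domains, by amounts that ranged from −0.01 at *Gata4* to −0.67 at *Tbx5* on the log2 scale. None of the 6 passed 2-fold. The median difference was −0.37, beside a median of −0.04 (quartiles −0.24 and 0.07) over the 405 start domains of 10 kb or more, of which 58.8% lay below 0 and 0 passed 2-fold. Over all 12022 peaks that cover a curated start the median was 0.01, with 1.7% at least 2-fold lower and 1.16% at least 2-fold higher.

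**Figure D1:**
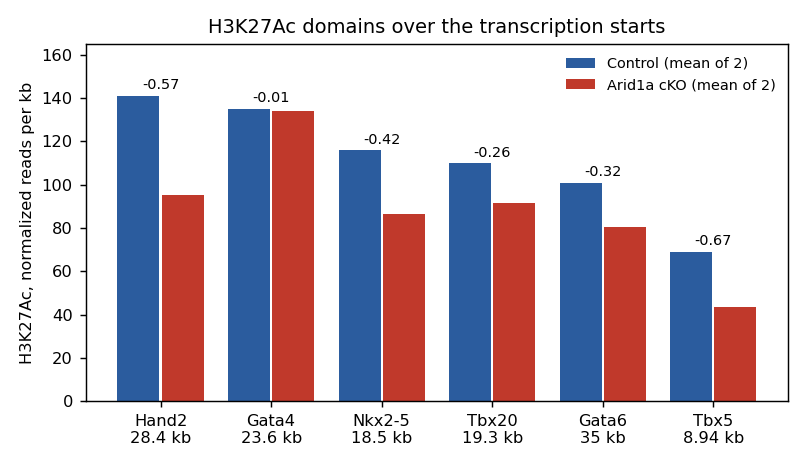
Bars show the authors' group means of H3K27Ac over the start domain of each gene, in normalized reads per kb, for control (blue) and *Arid1a cKO* (red); the number above each pair is the log2 difference and the width of the domain stands under the gene. The red bar is clearly shorter at *Hand2* (141 against 95.1) and *Tbx5* (69.1 against 43.4) and level with the blue bar at *Gata4* (135 against 134).

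*Tbx5* encodes the T-box factor mutated in Holt-Oram syndrome and needed for septation and conduction. Its start domain, chr5:119830561-119839498, had a mean of 617 reads in controls against 388 in *Arid1a cKO*, a difference of −0.67. This was the largest difference among the 6 start domains, and 3.31% of all start-covering peaks had a lower one. At 8.94 kb it was also the narrowest, ranked 517 by width among start-covering peaks. The domain covered the start of *Gm5563* too, so its signal cannot be assigned to *Tbx5* alone.

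*Hand2* encodes a basic helix-loop-helix factor needed for growth of the right ventricle. Its start domain, chr8:57307639-57336053, spanned 28.4 kb, covered also the starts of the noncoding RNAs *Hand2os1* and *Hdnr*, and went from 4010 reads in controls to 2700 in *Arid1a cKO* (−0.57). Per kb it had the highest control level of the 6 domains, and 4.3% of start-covering peaks had a lower difference. Signal over this interval cannot be assigned to *Hand2* apart from its noncoding neighbours.

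*Nkx2-5*, the homeodomain factor expressed from the first cardiac progenitors on, had a start domain of 18.5 kb at chr17:26836011-26854553 with 2150 reads in controls and 1610 in *Arid1a cKO* (−0.42). *Tbx20*, a T-box factor that maintains adult cardiomyocyte function, had one of 19.3 kb at chr9:24762421-24781767 with 2120 and 1770 reads (−0.26). Of all start-covering peaks, 6.9% had a lower difference than *Nkx2-5* and 13.6% a lower one than *Tbx20*. Among the 405 start domains of 10 kb or more, which are closer in width, these shares were 10.6% and 21.7%.

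The GATA zinc-finger factors differed from each other in these means. *Gata6*, which acts in outflow tract and ventricular development, had the widest of the 6 domains (35.0 kb, chr18:11047713-11082672, ranked 12 of 12022 by width), with 3520 reads in controls and 2820 in *Arid1a cKO* (−0.32). That domain covered the start of *Gata6os* too, so its signal cannot be assigned to *Gata6* alone. *Gata4*, which shares many targets with *Gata6*, had 3190 and 3170 reads over 23.6 kb at chr14:63234256-63257843 (−0.01), and 46.1% of start-covering peaks had a lower difference. *Gata4* therefore sat near the middle of all start-covering peaks, while *Gata6* had 10.3% below it. Among the 405 start domains of 10 kb or more, 55.8% lay below *Gata4* and 16.3% below *Gata6*.

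In control level per kb the order was *Hand2*, *Gata4*, *Nkx2-5*, *Tbx20*, *Gata6* and *Tbx5*, at 141, 135, 116, 110, 101 and 69.1 normalized reads per kb. In *Arid1a cKO* it was *Gata4*, *Hand2*, *Tbx20*, *Nkx2-5*, *Gata6* and *Tbx5*, at 134, 95.1, 91.5, 86.7, 80.6 and 43.4. *Gata4* took the first place from *Hand2*, and *Tbx5* was last in both groups. Whether neighbours in either order differ beyond the spread between hearts cannot be told from group means.

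Among all 14 member peaks, 10 were lower (71.4%) and 4 higher in *Arid1a cKO*, where 48.3% of all peaks were lower. The median difference was −0.21, beside 0.01 over all peaks. Of the 14, 1 was at least 2-fold lower (7.14%), where the share over all peaks was 10.6%. Another 1 was at least 2-fold higher (7.14%), where that share was 4.57%. The counts past 2-fold are therefore near the background. Summed over the member peaks, the log2 ratio of *Arid1a cKO* to control reads was −0.285, beside −0.084 over all peaks, and 79.4% of the members' control reads lay in start domains.

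Low peaks scatter more, so the members were also read by level, taken as total reads per peak, which is high in wide peaks. Below the lower quartile of level (18.1 reads) lay 5 member peaks, of which 1 was at least 2-fold lower and 1 at least 2-fold higher, where 16.5% and 12.5% of all peaks at that level were. Between the quartiles lay 2 member peaks, both within 2-fold, where 11.6% of all such peaks were at least 2-fold lower and 2.74% higher. Above the upper quartile (126 reads) lay 7, all of them below 0, from −0.67 to −0.01 with a median of −0.42. Of these, 0 passed 2-fold, where 2.75% of all such peaks were at least 2-fold lower and 0.226% higher. Among all peaks at a log2 level from 11.0 to 11.5, most also lay below 0. There, 33 lay from −0.25 to 0, 8 from −0.5 to −0.25 and 1 lower, beside 12 at 0 or above. Of the 7 members, only a *Gata4* domain (11.33) had that level, and the others ran from 7.6 at *Tbx20* to 11.71 at *Hand2*. At a log2 level from 7.5 to 8.0 the balance was more even, with 846 peaks from −0.25 to 0 and 989 from 0 to 0.25. The share below 0 over all peaks above the upper quartile was not computed.

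**Figure D2:**
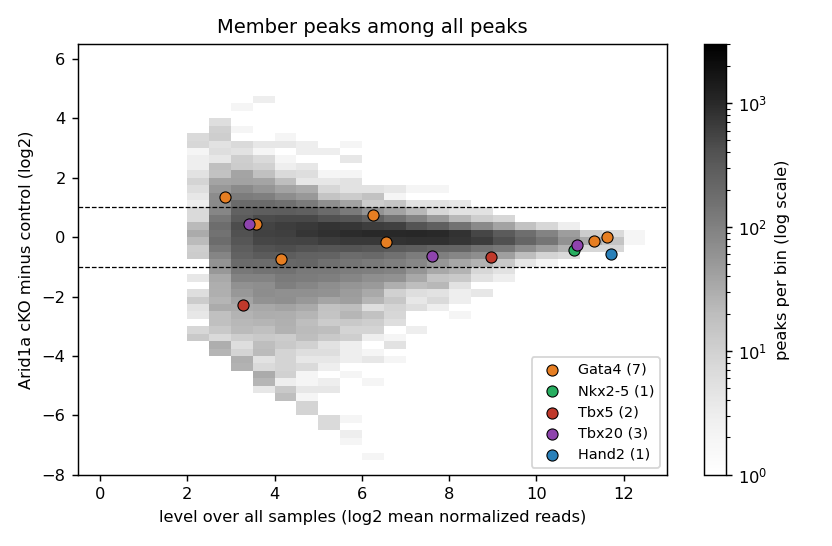
Grey bins count all 45980 placed peaks by their level over all samples (log2 mean normalized reads) and by the *Arid1a cKO* minus control difference (log2), with darker bins holding more peaks; coloured points are the 14 member peaks and dashed lines mark 2-fold. The 7 member peaks of highest level lie below 0 in the right part, and the 2 points outside the lines, *Tbx5* at −2.27 and *Gata4* at 1.35, are at low levels on the left.

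The peak at least 2-fold lower was a 0.768 kb peak at chr5:119877458-119878225, in an intron of *Tbx5* 43.2 kb downstream of its start. Its mean was 16.0 reads in controls against 3.32 in *Arid1a cKO*, 4.82-fold lower (−2.27). The peak at least 2-fold higher was a 0.864 kb peak at chr14:63277053-63277916, 32.2 kb upstream of *Gata4*, with 4.08 reads in controls and 10.4 in *Arid1a cKO*, 2.55-fold higher (1.35). Both rest on few reads, while the median peak of the table held 44.3.

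The other *Gata4* peaks pointed both ways. A 15.0 kb domain centred 22.9 kb upstream of the curated start, which covers 2 predicted *Gata4* starts, had the highest control level per kb of the gene (179 in controls, 164 in *Arid1a cKO*), with 2680 and 2470 reads in all (−0.12). A peak 51.8 kb upstream had 57.3 reads in controls and 95.0 in *Arid1a cKO* (0.73). The 3 intronic peaks gave −0.16 at 13.3 kb, −0.74 at 22.1 kb and 0.45 at 23.4 kb downstream of the start, at 99.0, 22.2 and 10.1 control reads. Summed over its 7 peaks, *Gata4* had 6070 reads in controls and 5860 in *Arid1a cKO*.

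*Tbx20* had a 7.0 kb peak 25.5 kb inside the gene, in an intron, with 236 reads in controls and 152 in *Arid1a cKO* (−0.63), a larger difference than at its start. A small intronic peak at 20.3 kb had 9.0 and 12.3 reads (0.45). The log2 ratio of summed reads per gene was −0.695 for *Tbx5*, −0.57 for *Hand2*, −0.42 for *Nkx2-5*, −0.289 for *Tbx20* and −0.05 for *Gata4*. Over 15761 genes the median was −0.004 with quartiles −0.205 and 0.176, so 4 of the 5 genes lay below the lower quartile and *Gata4* lay within the middle range.

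Noncoding RNA genes flank most of these loci and take many neighbouring peaks under the rule. When peaks were assigned to the nearest protein-coding start instead, the same genes had 57 peaks, *Gata6* among them with 22. Of the 57, 9 were at least 2-fold lower (15.8%) and 1 at least 2-fold higher (1.75%), beside 10.6% and 4.57% of all peaks. Below 0 lay 41 (71.9%), beside 48.3% of all peaks, and the median difference was −0.32, beside 0.01. By level, 2 of 15 below the lower quartile, 5 of 25 between the quartiles and 2 of 17 above the upper quartile were at least 2-fold lower, beside 16.5%, 11.6% and 2.75% of all peaks. The 9 lay at *Gata6* (3), *Hand2* (3), *Tbx20* (2) and *Tbx5* (1).

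**Figure D3:**
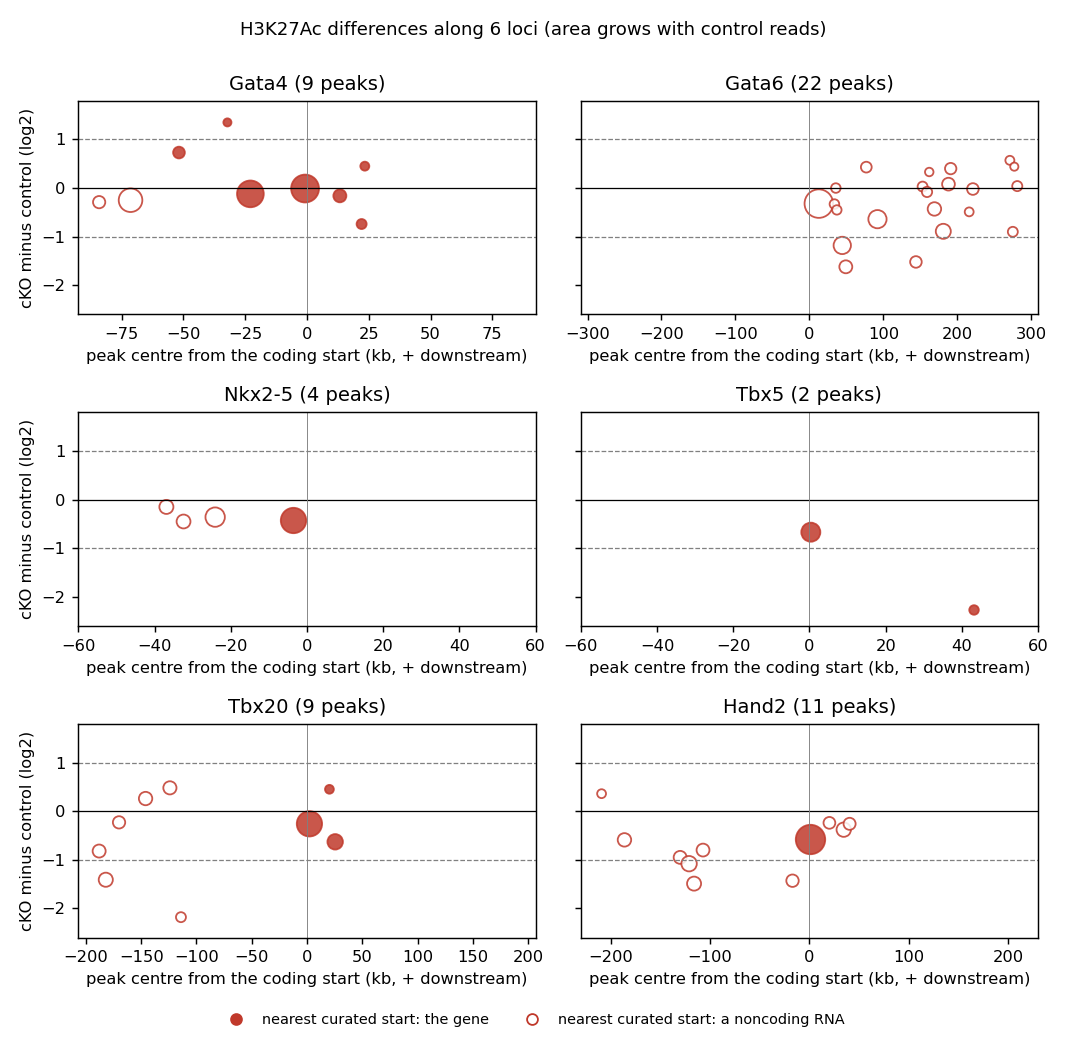
Each panel plots, for 1 gene, the *Arid1a cKO* minus control difference (log2) of every peak nearest to its protein-coding start against the distance of the peak's centre from that start in kb; filled circles belong to the gene by the curated rule, open circles have a noncoding RNA as nearest curated start, larger circles hold more control reads and dashed lines mark 2-fold. Open circles between 107 and 130 kb upstream of *Hand2* sit between −0.80 and −1.49, while those at *Gata6* scatter on both sides of 0.

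At *Hand2*, 10 of 11 peaks were below 0. A group of 4 peaks between 107 and 130 kb upstream went from 94.4 to 54.2 reads (−0.80), from 146 to 52.0 (−1.49), from 231 to 109 (−1.08) and from 97.0 to 50.2 (−0.95), in order of distance. A peak 17 kb upstream went from 77.7 reads in controls to 28.8 in *Arid1a cKO* (−1.43), and the peak 209 kb upstream was the only one above 0, at 9.25 and 11.9 reads (0.36). A peak 186 kb upstream gave −0.59, and the 3 downstream peaks at 20.1, 34.5 and 40.4 kb gave −0.24, −0.38 and −0.26.

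At *Gata6*, 13 of 22 peaks were below 0, and every centre lay downstream of the start. A peak 44.4 kb downstream, chr18:11094761-11099042, had 402 reads in controls and 177 in *Arid1a cKO* (−1.18), and its neighbour at 49.2 kb had 96.3 and 31.3 (−1.62). Another peak past 2-fold lay 144 kb downstream, at 53.1 and 18.5 reads (−1.52), and the highest difference at the locus was 0.57, in a peak of 10.2 control reads. The peaks at 92.0, 169 and 181 kb, with 505, 119 and 205 control reads, gave −0.64, −0.43 and −0.89.

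At *Tbx20*, a peak 182 kb upstream had 151 reads in controls and 56.9 in *Arid1a cKO* (−1.41), and one 114 kb upstream had 21.4 and 4.72 (−2.18). Between them, peaks at 124 and 146 kb gave 0.48 and 0.26 at 106 and 115 control reads, and one at 170 kb gave −0.23 at 74.5. The 4 peaks at *Nkx2-5* all lay below 0, from −0.45 to −0.15. At *Gata4*, a further domain of 22.4 kb centred 71.4 kb upstream had 1580 reads in controls and 1330 in *Arid1a cKO* (−0.25).

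*Hand1* and *Isl1* had no peak by either assignment. The nearest peak edge was 29.3 kb from the start of *Hand1*, with 5 peaks of other genes within 150 kb, of which 0 passed 2-fold and whose median was −0.08. For *Isl1* the nearest edge was 645 kb away. The table lists only regions called in at least 2 of the libraries, so no level can be given for either gene.

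Genes that work with the core factors had ratios on both sides of 0, with 15 of 22 below 0 and a median ratio of −0.178. Among all genes 50.3% lay below 0. Of 26 partner transcription factors and cofactors, 22 had a nearest peak, with 160 peaks in all, of which 21 were at least 2-fold lower (13.1%) and 6 at least 2-fold higher (3.75%), with a median of −0.15, beside 10.6% and 4.57% of all peaks and a median of 0.01. *Smyd1*, a muscle histone methyltransferase gene, had the lowest ratio, with 578 reads in controls and 352 in *Arid1a cKO* (−0.717) and 2 of 4 peaks at least 2-fold lower. *Tbx18*, a T-box gene of the epicardium and sinus horns, had the highest, with 631 and 875 reads (0.473).

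Of 19 target genes of the core factors, 17 had a nearest peak, with 122 peaks in all, of which 14 were at least 2-fold lower (11.5%) and 8 at least 2-fold higher (6.56%), with a median of −0.13, beside the same 10.6%, 4.57% and 0.01 over all peaks. *Corin*, which encodes the protease that activates natriuretic peptides, had the lowest ratio, with 1240 reads in controls and 583 in *Arid1a cKO* (−1.085) and 5 of 10 peaks at least 2-fold lower. *Nppa*, the atrial natriuretic peptide gene, went the other way, from 49.5 reads to 234 (2.24), as did *Myl7*, the atrial myosin light chain gene, from 11.3 to 56.0 (2.307). *Nppa* and *Myl7* are genes of atrial muscle. Of the other atrial and outflow markers, *Hcn4* had a ratio of −1.367 over 2 peaks with 108 control reads. *Nr2f2* had one of −0.031, and *Sln* and *Isl1* had no peak. The source of the differences at *Nppa* and *Myl7* was not tested.

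**Figure D4:**
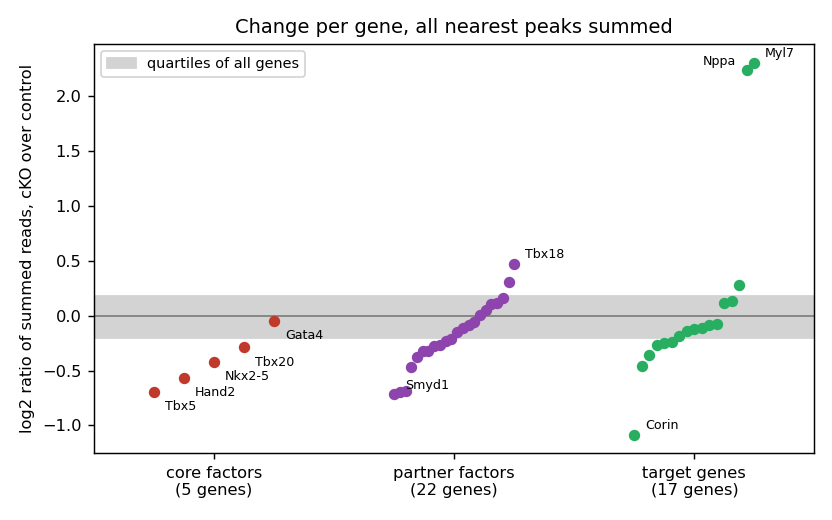
Each point is 1 gene, placed by the log2 ratio of its reads summed over all nearest peaks in *Arid1a cKO* and control, for the core factors (5 genes), partner factors (22 genes) and target genes (17 genes); the grey band spans the quartiles of all genes, from −0.205 to 0.176. All 5 core factors lie below 0, from −0.695 to −0.05. Of the partners, 15 of 22 lie below 0, in a span of −0.717 to 0.473. Of the targets, 12 of 17 do, in a span of −1.085 to 2.307. Among all genes 50.3% lie below 0.

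*Gata4* alone among the core factors had at least 5 peaks by the rule, so likeness to other genes was measured for it alone, as the distance over control log2 reads per kb, log2 ratio and SD of the differences, among 2746 genes. The nearest were *H3f3a* (0.101), *Chaserr* (0.133) and *Klf3* (0.152).

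Ventricles hold several cell types, and fewer cells of a type and less H3K27Ac per cell cannot be told apart in these bulk samples. Cardiomyocyte markers were present, with a start covered by a peak for 8 of 8 genes, and 7 with a nearest peak summed to 19200 reads in controls and 17200 in *Arid1a cKO* (−0.16), with 6 of 7 ratios below 0. The 8 fibroblast markers summed to 3980 and 5300 reads (0.41), with ratios from 0.002 to 0.596 and 0 of 8 below 0. The 4 macrophage and leukocyte markers with a peak gave 0.35 at 280 and 356 reads, with *Adgre1* and *Lyz2* at no peak, and the endothelial and endocardial, smooth muscle and pericyte, and epicardial lists gave 0.01, 0.07 and 0.11. None of the 4 neuronal and Schwann markers had a peak. The part of these shifts in the lower H3K27Ac of the core factor domains was not tested. *Arid1a* itself had a start peak of 1610 reads in controls and 1660 in *Arid1a cKO* (0.05), and H3K27Ac there does not check the deletion.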

How the data were processed

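H3K27Ac ChIP-seq was done on P7 ventricles of 2 control and 2 *Arid1a cKO* mice, each with an input library (8 libraries in all), grouped by the genotype and antibody in the labels. Per the submitters' processing notes and the study's methods, reads were aligned by the authors with BWA 0.7.17-r1188 (build mm10). HOMER called histone-style peaks with all inputs merged as background, and peaks seen in a single sample were dropped. The authors then ran DiffBind 2.12.0 and DESeq2 1.24.0 on the peaks. The deposited values are log2 mean normalized reads per peak, over all samples and per group; library scaling and the handling of input are not given in the sources used here, so a shift common to all peaks could be hidden or created by the scaling. The deposited table also holds the authors' own log2 fold changes, p-values and FDR, which were not used.

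From the group means, differences, sums of 2 to the power of the log2 value, and reads per kb of peak were computed. Wide peaks hold more reads, so levels of genes were compared per kb, while peaks were grouped by level on their total reads. Centres were joined to the nearest of 45756 curated RefSeq transcripts (GRCm38.p6), and 7 peaks on unplaced sequences were left out. Without per-sample values, no test or interval was computed here. A mean at or under 3 reads counted as a floor, and 0 member means were that low. All members were described in full, with other genes named where their strongest peak passed 2-fold or their ratio was lowest or highest in a list; *Hcn4* and *Nr2f2* are markers, and all marker lists are reported. A target gene is not reported here, and its peaks were left out of the list's counts. The members and gene lists were chosen with earlier results of these data known. Alternatives covered the starts used, distance, low peaks, 3 reads added to each mean, centring, a 1.5-fold limit, each gene left out, and the windows for starts and motifs. The steps were tested on simulated data. Python 3.11.15, numpy 2.4.6, pandas 2.3.3, pyfaidx 0.9.0.4 and matplotlib 3.10.9 were used.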

Additional observations from a re-analysis of the deposited data

How the results depend on the processing

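The 1 member peak at least 2-fold lower became 9 with protein-coding starts only (57 peaks) and 4 with predicted transcripts included (26 peaks). The count was 13 when every peak within 150 kb of a member start was taken (78 peaks, an alternative chosen after seeing the data). These sets are larger, and 10.6% of all peaks were at least 2-fold lower. At a 1.5-fold limit the count was 4, and the share of all peaks at that limit was not computed. It was 0 without *Tbx5* or without the peaks below the lower quartile of level. The 1 peak at least 2-fold higher became 2 at a 1.5-fold limit, and 0 without *Gata4*, without the peaks below the lower quartile, or with 3 reads added to each mean. The median difference of −0.21 moved to −0.32 with protein-coding starts, −0.325 with predicted transcripts and −0.57 without *Gata4*. The summed log2 ratio of −0.285 moved to −0.465 without *Gata4*. Of the 6 start domains, 1 had its centre in the window that runs 1000 bp before and 100 bp after a start, since wide domains are centred away from it. The other 36 values of these results stayed within 1.5 times for counts or 0.1 for log2 values. The ratios of single genes moved by less than 0.1. In the central 1000 bases the member shares were 64.3% for GATA and NKX2-5 words, beside 38.8% and 40.7% of all peaks. They were 42.9% for T-box, HAND E-box and TEAD words, beside 38.9%, 53.4% and 45.0% of all peaks. The MEF2 core was in 0 member peaks, beside 4.2% of all peaks. No value changed sign. Differences of low peaks rest on few reads, and the depth behind them is unknown. No paired analysis was possible because the table holds group means only, and leaving out each replicate could not be run for the same reason.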
